A study of Mus musculus with 8 samples.

Results

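The glutathione transferases and the enzymes that make and recycle glutathione were followed through 8 RNA-seq libraries of A223, a mouse line labelled as squamous cell carcinoma. The genes were taken by name as the rows of the deposited gene tables for Gsta4, Gstt1, Gstm1, Gstm2, Gstp1, Gsto1, Mgst1, Mgst3, Gss and Gsr, 10 of 24411 genes, and all 10 were found. The libraries formed 4 groups of 2: PRDX6 knockdown (KD) cells given 100 nM largazole for 18 h, KD cells with DMSO at 0 h, parental cells given 100 nM largazole for 18 h, and parental cells with DMSO at 0 h. Largazole is an inhibitor of class I histone deacetylases, and PRDX6 is a peroxiredoxin that reduces phospholipid hydroperoxides with glutathione as its electron donor. Drug and time changed together, so that a change named here for largazole cannot be told apart from 18 h of culture. The knockdown was set against the parental line, since no cells with a non-targeting construct were analysed here. The labels do not say how the knockdown was made or whether the replicates were separate cultures. The p-values here set differences between group means against the spread between libraries of a group, estimated over all 4 groups together. That spread may be only technical.

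Glutathione is a tripeptide whose thiol neutralises electrophiles and peroxides. Glutathione transferases join that thiol to reactive carbonyls, epoxides, halides and quinones, and the conjugates are pumped out of the cell. The last step of its synthesis is carried out by glutathione synthetase (Gss), and its oxidised form is returned to the reduced one by glutathione reductase (Gsr), which uses NADPH. In tumour cells these enzymes are studied for the detoxification of alkylating drugs and for the handling of lipid peroxidation products, and the pi-class transferase Gstp1 is known to return oxidised PRDX6 to its active form.

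The libraries held 13020492 to 15613216 estimated counts, and 12517 genes passed the filter on low counts. All 10 glutathione genes passed, but Gstt1 did so only through the largazole libraries and 9 would have passed on the DMSO libraries alone. Prdx6 had 81.1 and 64.9 CPM (counts scaled to library size by the TMM method) in KD cells with largazole, 86.6 and 79.2 CPM in KD cells with DMSO, 257 and 233 CPM in parental cells with largazole, and 297 and 283 CPM in parental cells with DMSO. The labelled squamous origin was not borne out by the defining markers Krt5, Krt14, Krt6a and Trp63, which averaged at most 3.15 CPM in any group. The epithelial genes Cdh1 and Epcam averaged at most 3.505 CPM, whereas Krt8 and Krt18, keratins of simple epithelium, and the fibroblast genes Col1a1 and Pdgfra were abundant. The KD largazole libraries differed most from each other, with an SD of 0.359 for the log2 difference between replicates over 10183 genes, against 0.194 to 0.218 in the other groups. The ribosomal RNA precursor Rn45s had 23915 and 742 CPM in those libraries. Each of the 10 genes was higher there in replicate 1 than in replicate 2. Rn45s was also higher in replicate 1 in KD cells with DMSO (9963 and 2549 CPM) and parental cells with largazole (7739 and 949.8 CPM). It had 1353 and 1212 CPM in parental cells with DMSO. In parental cells with largazole all of the genes but Mgst1 were higher in replicate 1. In KD cells with DMSO all but Gsta4, Gstt1 and Gstm2 were, and in parental cells with DMSO they went both ways. Results that rest on the KD largazole libraries are also given with each left out.

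The start of transcription is shown for 4 genes picked by their results. They are Gstt1, which changed most, Gstp1, one of the most abundant, Mgst3, which rose in both genotypes, and Mgst1, which did not pass the test. Whether the motifs relate to the changes was not tested. The windows are RefSeq promoters on GRCm38.p6, each with 250 bases before and 50 after the annotated start, and 8 of the 10 genes had one. Capitals mark matches on either strand to TGACNNNGC, the core of the antioxidant response element bound by NRF2, to TGAGNNNGC, a second form of the element that was added after the windows had been read, and to GGGCGG, the GC box bound by Sp1. Gstt1 lies at chr10:75797682-75797981 on the minus strand, Gstp1 at chr19:4037863-4038162 on the minus strand, Mgst3 at chr1:167393792-167394091 on the minus strand and Mgst1 at chr6:138140277-138140576 on the plus strand.
Gstt1: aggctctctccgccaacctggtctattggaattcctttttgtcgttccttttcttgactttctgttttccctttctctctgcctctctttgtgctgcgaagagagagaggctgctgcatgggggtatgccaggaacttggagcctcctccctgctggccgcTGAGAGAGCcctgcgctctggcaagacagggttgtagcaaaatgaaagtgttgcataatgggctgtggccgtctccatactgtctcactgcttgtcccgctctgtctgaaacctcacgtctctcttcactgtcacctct
Gstp1: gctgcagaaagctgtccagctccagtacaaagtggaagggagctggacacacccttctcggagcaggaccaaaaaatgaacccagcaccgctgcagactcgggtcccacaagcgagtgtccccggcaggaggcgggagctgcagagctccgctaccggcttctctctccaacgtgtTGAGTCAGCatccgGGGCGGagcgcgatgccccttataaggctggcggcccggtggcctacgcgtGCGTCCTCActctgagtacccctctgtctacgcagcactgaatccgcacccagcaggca
Mgst3: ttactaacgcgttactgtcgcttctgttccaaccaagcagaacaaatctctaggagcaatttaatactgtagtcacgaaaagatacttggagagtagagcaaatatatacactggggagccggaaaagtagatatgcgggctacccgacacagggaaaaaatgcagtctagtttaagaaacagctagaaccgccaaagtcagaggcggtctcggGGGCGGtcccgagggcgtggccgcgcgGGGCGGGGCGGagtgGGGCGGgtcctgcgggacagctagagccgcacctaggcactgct
Mgst1: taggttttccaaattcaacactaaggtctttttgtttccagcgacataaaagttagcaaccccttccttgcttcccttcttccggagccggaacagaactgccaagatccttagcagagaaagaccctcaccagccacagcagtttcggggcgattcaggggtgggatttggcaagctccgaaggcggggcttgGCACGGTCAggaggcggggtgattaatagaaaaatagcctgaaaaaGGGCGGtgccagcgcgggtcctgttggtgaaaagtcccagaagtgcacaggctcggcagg

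The fixed core TGACNNNGC was found in 1 of 10 windows of the 8 genes, the window of Mgst1 shown, on the opposite strand, and in 12.4% of 32817 RefSeq windows of the same length. Mgst1 and Gstm1 have 2 windows each, and the other window of Mgst1, at chr6:138141337-138141636, holds none of the motifs searched. The second form was found in Gstt1 and at 2 places in Gstp1, and in 17.7% of all windows. A GC box was found in 5 of the genes, Gstp1, Gsto1, Mgst1, Mgst3 and Gss, and in 35.6% of all windows, and Mgst3 held 4 of them around its start, of which 2 overlap by 1 base. TATAAA was found in Gstm1 only, in the second of its windows, and in 13.6% of all windows. These letters are descriptions of the windows and no binding was measured.

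Under largazole, 8 of the 10 genes rose in KD cells and 8 rose in parental cells, and none fell in either. Gsta4 and Gstt1 were close to silent in DMSO and clearly expressed with the drug, the mu, pi and omega transferases, Mgst3 and Gss rose between 1.61-fold and 2.79-fold, and Gsr and Mgst1 did not pass the test. The genes called were Gsta4, Gstt1, Gstm1, Gstm2, Gstp1, Gsto1, Mgst3 and Gss in both genotypes. Gstt1 passed the filter on low counts only through the largazole libraries, and without it 7 of 9 genes rose in each genotype. A gene was called at an adjusted p under 0.05 by edgeR's quasi-likelihood F test with Benjamini-Hochberg adjustment over the 12517 genes. By that rule 48.2% of all tested genes were called in KD cells, 25.0% higher and 23.2% lower, and 49.6% in parental cells, 26.9% higher and 22.7% lower. The median log2 fold change of the 10 genes was 0.88 in KD cells and 0.94 in parental cells, beside 0.01 and 0.03 for all tested genes. These medians include Gstt1, which had to be higher with largazole. Without it, the median of the other 9 was the value of Gstm2 in KD cells (0.79) and of Gsto1 in parental cells (0.90).

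**Figure D1:**
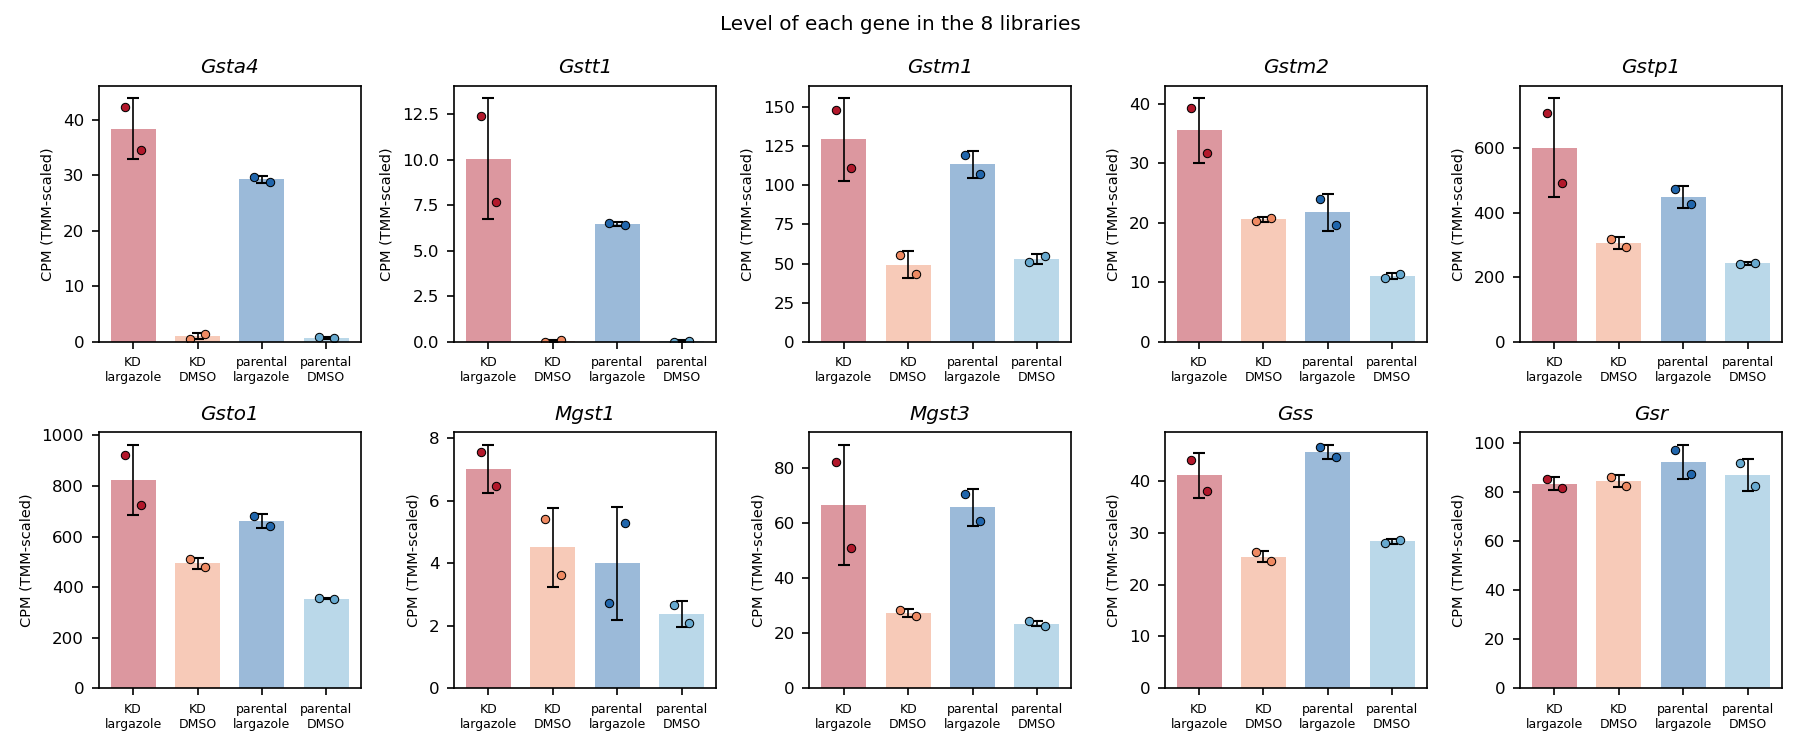
Level of each of the 10 genes in the 8 libraries, in TMM-scaled CPM on linear axes that start at 0. Points are libraries, bars are group means and error bars are the SD (n = 2); Gsta4 and Gstt1 stand at or near 0 in the DMSO groups, and Gsr lies between 81.5 and 97.2 CPM throughout.

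Gsta4, an alpha-class enzyme that conjugates the lipid peroxidation product 4-hydroxynonenal, had 42.3 and 34.6 CPM in KD cells with largazole, 0.593 and 1.40 CPM in KD cells with DMSO, 29.8 and 28.9 CPM in parental cells with largazole, and 0.887 and 0.607 CPM in parental cells with DMSO. The largazole libraries stood far above every DMSO library, and the KD and parental DMSO libraries overlapped. It was 39.0-fold higher with largazole in KD cells (log2 5.29 ± 0.257 SE, adjusted p = 4.92e-07) and 39.1-fold higher in parental cells (log2 5.29 ± 0.275, adjusted p = 6.43e-07) by edgeR's quasi-likelihood test. With DMSO the libraries held only 9 and 19 counts of Gsta4 in KD cells and 12 and 9 in parental cells. The filter's minimum count was 10, so the size of these folds rests on few counts. Only 1.23% of tested genes had a greater log2 fold change in KD cells, and 1.44% in parental cells. The gene lies at chr9:78182774-78209349 on the plus strand of GRCm38, and its exons overlap no other annotated gene.

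Gstt1, a theta-class enzyme known for acting on small halogenated hydrocarbons, had 159 and 114 counts in KD cells with largazole, 0 and 1 count in KD cells with DMSO, 96 and 97 counts in parental cells with largazole, and 0 and 1 count in parental cells with DMSO. In CPM these were 12.4 and 7.69 in KD cells with largazole, and 6.54 and 6.39 in parental cells with largazole. With so few counts in DMSO, the ratio between summed counts is known only roughly. It was 284 in KD cells (exact binomial 95% interval 50.5 to 11252) and 183 in parental cells (32.5 to 7274), where the intervals cover counting error only. Gstt1 entered the test only through the libraries with largazole, where it was high, so that it had to differ, and its counts are given as a description.

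The pattern of these 2 genes over the libraries was like that of a few others. Likeness was measured as the root mean square difference between centred log2 CPM over the 8 libraries, among genes whose mean over the libraries reached 5 CPM. Nearest to Gstt1 were Atp1b2 (0.312), Hba-a1 (0.346) and Gsta4 itself (0.387). Nearest to Gsta4 were Pde2a (0.286), Cyp1b1 (0.385) and Csdc2 (0.415). The values are descriptions across libraries that share drug, time and genotype.

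The mu-class enzymes Gstm1 and Gstm2, which conjugate epoxides and quinones, both rose. Gstm1 had 148 and 111 CPM in KD cells with largazole, 55.2 and 43.3 CPM in KD cells with DMSO, 119.5 and 107 CPM in parental cells with largazole, and 50.7 and 55.1 CPM in parental cells with DMSO. The largazole libraries lay at about the same level in both genotypes, and so did the DMSO libraries. The increase was 2.62-fold in KD cells (log2 1.39 ± 0.153, adjusted p = 5.7e-05) and 2.14-fold in parental cells (log2 1.10 ± 0.152, adjusted p = 0.000249) by edgeR's quasi-likelihood test. Gstm2 had 39.4 and 31.7 CPM in KD cells with largazole, 20.3 and 20.9 CPM in KD cells with DMSO, 24.0 and 19.6 CPM in parental cells with largazole, and 10.7 and 11.5 CPM in parental cells with DMSO. KD cells with DMSO were thus at the level of parental cells with largazole. Gstm2 was 1.73-fold higher with largazole in KD cells (log2 0.79 ± 0.145, adjusted p = 0.00152) and 1.97-fold higher in parental cells (log2 0.98 ± 0.158, adjusted p = 0.000674) by the same test.

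Gstm1 and Gstm2 are neighbours on chromosome 3, at chr3:108012255-108017973 and chr3:107981702-107986453 on the minus strand. Their coding sequences of 657 bases differ at 92 positions and are 86.0% identical. The first 120 coding bases, from GENCODE M21 transcripts, are shown because reads from the gene with the knockdown difference have to be told apart from those of its neighbour, and capitals mark the 18 bases that differ.
Gstm1: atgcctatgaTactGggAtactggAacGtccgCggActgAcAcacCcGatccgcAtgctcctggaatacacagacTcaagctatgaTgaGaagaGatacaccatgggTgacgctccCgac
Gstm2: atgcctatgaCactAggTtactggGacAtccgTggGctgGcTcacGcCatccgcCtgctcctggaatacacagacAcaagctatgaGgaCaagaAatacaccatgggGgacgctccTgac

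Of the 50-base stretches of the longest Gstm1 transcript, 23.1% occur in another annotated gene, chiefly the pseudogene Gstm2-ps1 and Gstm3. For Gstm2 the share is 9.36%, with 11 stretches in common with Gstm1. Differences between close copies therefore depend in part on how shared reads were assigned, which is not given in the sources used here.

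Gstp1, the pi-class enzyme, had 710.3 and 493 CPM in KD cells with largazole, 320.2 and 294 CPM in KD cells with DMSO, 473 and 426 CPM in parental cells with largazole, and 240.3 and 246 CPM in parental cells with DMSO. Each largazole library lay above each DMSO library, and the DMSO groups did not overlap. Gstp1 was 1.96-fold higher with largazole in KD cells (log2 0.97 ± 0.143, adjusted p = 0.000373) and 1.85-fold higher in parental cells (log2 0.89 ± 0.143, adjusted p = 0.00064) by edgeR's quasi-likelihood test. It lies at chr19:4035407-4037985 on the minus strand. Its neighbour Gstp2 has a coding sequence of the same 633 bases with 12 differences, 98.1% identical, and 62.3% of the 50-base stretches of Gstp1 occur in another gene. The first 120 coding bases of the pair show where reads could be told apart, with the 6 differing bases in capitals.
Gstp1: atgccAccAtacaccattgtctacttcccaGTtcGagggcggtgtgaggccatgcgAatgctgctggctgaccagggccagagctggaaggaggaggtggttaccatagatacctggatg
Gstp2: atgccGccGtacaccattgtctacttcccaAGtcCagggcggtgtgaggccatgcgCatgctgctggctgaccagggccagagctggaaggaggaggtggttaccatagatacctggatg

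The deposited estimates for Gstp1 and Gstp2 were fractional, and their sum came within 0.01 of a whole number in all 8 libraries. Gstp2 held 1.52% and 1.60% of that sum in KD cells with largazole, 0.212% and 0.371% in KD cells with DMSO, 1.22% and 1.24% in parental cells with largazole, and 0.528% and 0.283% in parental cells with DMSO. Nearly all of the signal of the pair was thus given to Gstp1. With the counts of both genes summed before the fit, an alternative chosen after seeing the data, the log2 fold change in KD cells was 0.99 (adjusted p = 0.000326 by edgeR's quasi-likelihood test).

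Gsto1, an omega-class enzyme with an active-site cysteine that removes glutathione from proteins and reduces dehydroascorbate, had, with Gstp1, the highest levels of the 10 per transcript length in every group. It stood above Gstp1 without overlap only in KD cells with DMSO, and their libraries overlapped in the other 3 groups. It had 922 and 725 CPM in KD cells with largazole, 511 and 479 CPM in KD cells with DMSO, 682 and 643 CPM in parental cells with largazole, and 355 and 353 CPM in parental cells with DMSO. No pair of groups overlapped. Gsto1 was 1.66-fold higher with largazole in KD cells (log2 0.74 ± 0.106, adjusted p = 0.000317) and 1.87-fold higher in parental cells (log2 0.90 ± 0.106, adjusted p = 8.63e-05) by edgeR's quasi-likelihood test. The gene lies at chr19:47854970-47864790 on the plus strand and shares no 50-base stretch with another annotated gene.

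The membrane-bound transferases differed from each other. Mgst3, a microsomal enzyme with leukotriene C4 synthase and peroxidase activity, had 81.9 and 51.0 CPM in KD cells with largazole, 28.4 and 26.4 CPM in KD cells with DMSO, 70.4 and 60.8 CPM in parental cells with largazole, and 24.2 and 22.7 CPM in parental cells with DMSO. It was 2.42-fold higher with largazole in KD cells (log2 1.28 ± 0.192, adjusted p = 0.00043) and 2.79-fold higher in parental cells (log2 1.48 ± 0.194, adjusted p = 0.000177) by edgeR's quasi-likelihood test. The drug and DMSO libraries were well apart, although the KD largazole libraries spread more widely than the others.
Mgst1, which reduces lipid hydroperoxides in the endoplasmic reticulum and outer mitochondrial membrane, was the least abundant of the 10 per transcript length in the largazole groups. It had 7.56 and 6.47 CPM in KD cells with largazole, 5.40 and 3.61 CPM in KD cells with DMSO, 2.72 and 5.27 CPM in parental cells with largazole, and 2.66 and 2.09 CPM in parental cells with DMSO. The libraries held 31 to 97 counts of it. Its log2 fold change with largazole was 0.62 ± 0.298 in KD cells (adjusted p = 0.111) and 0.76 ± 0.364 in parental cells (adjusted p = 0.109) by edgeR's quasi-likelihood test. In parental cells it passed without largazole replicate 1 (log2 1.15, adjusted p = 0.0294) and in a fit of only the libraries compared (adjusted p = 0.0399), with an adjusted p of 0.109 in the fit of all 8 libraries by the same test.

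Of the 10 genes, 1 acts in glutathione synthesis and 1 in its recycling. Gss, which completes the tripeptide, had 44.0 and 38.0 CPM in KD cells with largazole, 26.2 and 24.6 CPM in KD cells with DMSO, 46.6 and 44.7 CPM in parental cells with largazole, and 28.0 and 28.6 CPM in parental cells with DMSO. It was 1.61-fold higher with largazole in each genotype (log2 0.69 ± 0.109, adjusted p = 0.000602 in KD cells, and log2 0.69 ± 0.108, adjusted p = 0.000539 in parental cells) by edgeR's quasi-likelihood test. The exons of Gss, at chr2:155563181-155592810 on the minus strand, overlap those of Acss2, an acetyl-CoA synthetase gene on the other strand, and of Gssos1 and Gssos2. Acss2 rose as well, by 1.50 ± 0.109 on the log2 scale in KD cells and 1.74 ± 0.11 in parental cells. The library kit marks strand, but the strand setting of the counting is not given in the sources used here. Whether reads of Gss and Acss2 were told apart in the shared exons is therefore not known. Those exons hold 4.24% of the 50-base stretches of Gss.

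Gsr had 85.2 and 81.5 CPM in KD cells with largazole, 86.1 and 82.6 CPM in KD cells with DMSO, 97.2 and 87.4 CPM in parental cells with largazole, and 91.7 and 82.2 CPM in parental cells with DMSO. The largazole and DMSO libraries overlapped in each genotype. The log2 fold change with largazole was -0.02 ± 0.0923 in KD cells (adjusted p = 0.889) and 0.09 ± 0.0918 in parental cells (adjusted p = 0.462) by edgeR's quasi-likelihood test. The sign of the KD value depended on the scaling, being 0.06 with upper-quartile scaling and 0.04 with library totals only.

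**Figure D2:**
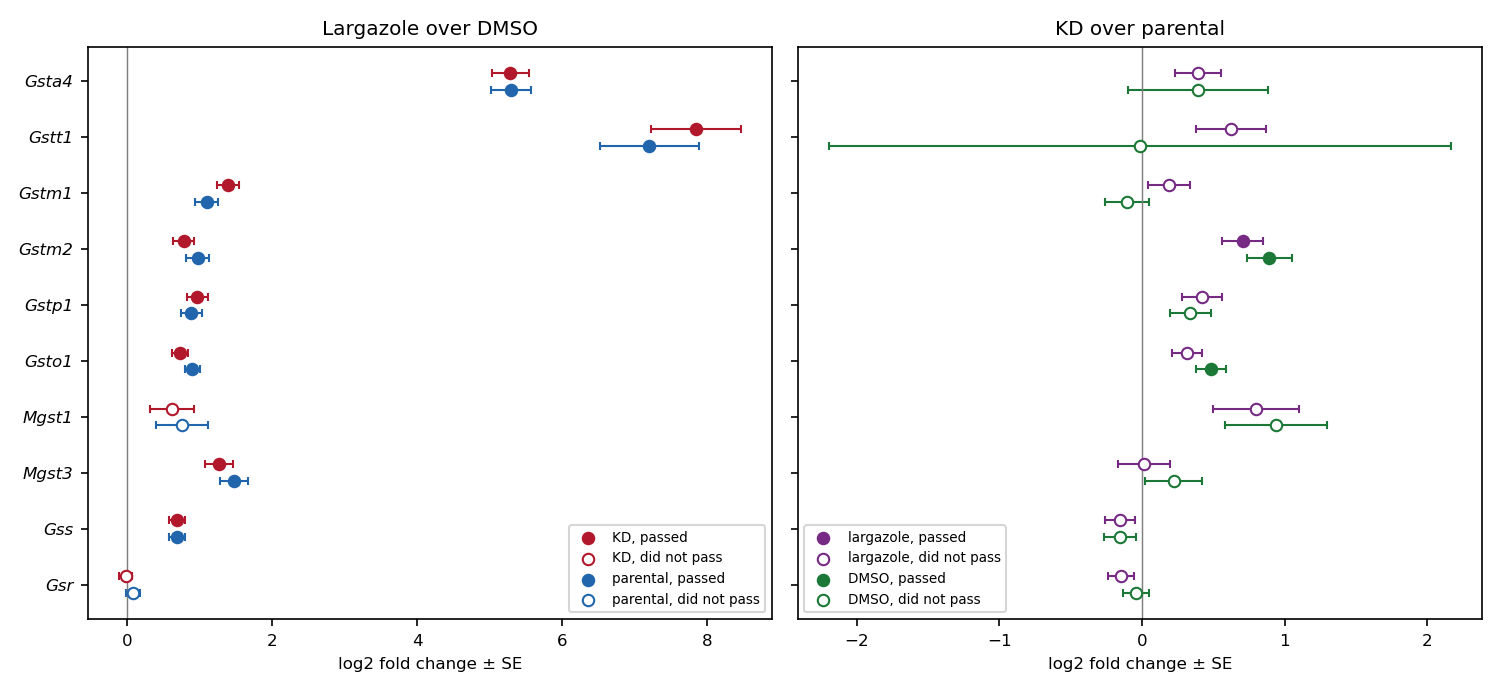
Log2 fold changes (points) with their SE (bars) of the 10 genes, for largazole over DMSO in KD and parental cells (left) and for KD over parental cells with largazole and with DMSO (right). Filled points passed an adjusted p of 0.05; 8 genes did so in each genotype under largazole, 1 in KD cells with largazole and 2 in KD cells with DMSO, and the wide bar of Gstt1 in DMSO rests on 1 count in each group.

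The 16 calls under largazole were kept in all 20 alternatives of scaling, filter, test, design or left-out library, 160 of 160 values in each genotype. Gstt1 is 1 of the 8 genes called in each genotype and had to differ, so its values say nothing about stability. Their highest adjusted p over these alternatives was 0.017 in KD cells and 0.0105 in parental cells. The lowest log2 fold change was 0.55 in KD cells and 0.65 in parental cells. Without KD largazole replicate 1 or replicate 2, the same 8 genes were called in KD cells.

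Seen per kilobase of the longest annotated transcript, the levels spanned a wide range. In KD cells with largazole the order was Gstp1 (733 CPM per kilobase), Gsto1 (697), Gstm1 (100.3), Mgst3 (60.6), Gsta4 (39.4), Gstm2 (33.4), Gsr (31.2), Gss (12.6), Gstt1 (9.09) and Mgst1 (6.01). Gstp1 and Gsto1 overlapped there between libraries, as did Gsta4 with Gstm2 and Gstm2 with Gsr, while the other neighbours did not. In parental cells with DMSO the order was Gsto1 (299.5 CPM per kilobase), Gstp1 (296), Gstm1 (41.1), Gsr (32.5), Mgst3 (21.4), Gstm2 (10.4), Gss (8.69), Mgst1 (2.04), Gsta4 (0.765) and Gstt1 (0.0305). Only Gsto1 and Gstp1 overlapped in that group. In KD cells Gsta4 stood above Gsr with largazole (39.4 against 31.2 CPM per kilobase) and under it with DMSO (1.02 against 31.5). In parental cells it stayed under Gsr without overlap with largazole (29.6 and 30.5 against 32.7 and 36.4) and with DMSO. The summed CPM of the 8 transferases was 1964 and 1460 in KD cells with largazole, 941 and 869 in KD cells with DMSO, 1408 and 1297 in parental cells with largazole, and 685 and 690.3 in parental cells with DMSO.

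**Figure D3:**
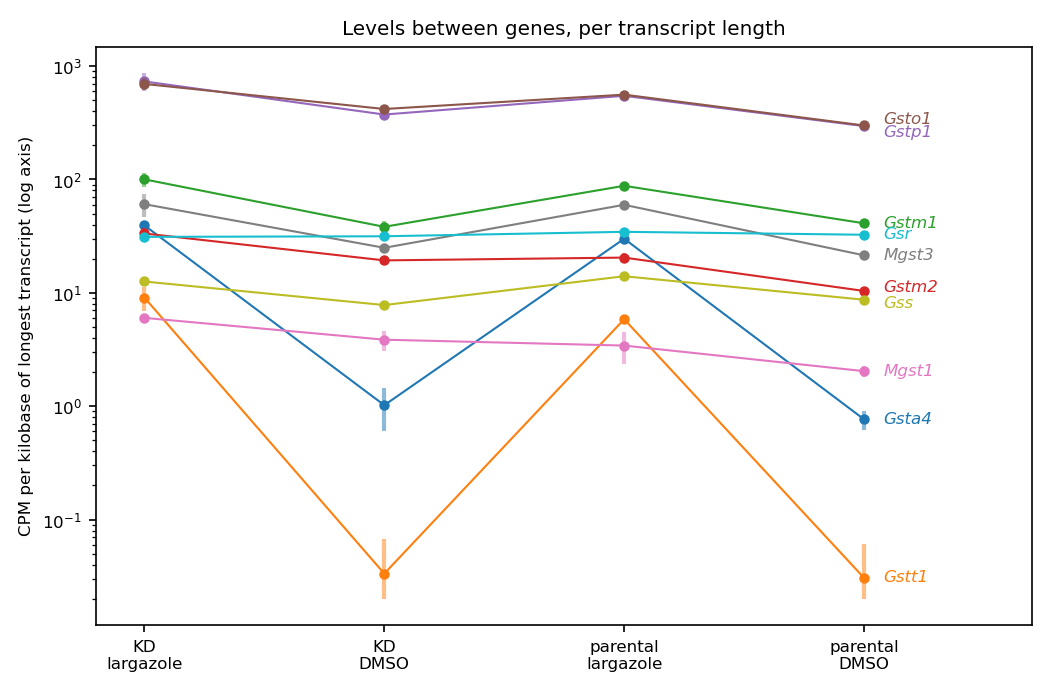
Mean level of each of the 10 genes in CPM per kilobase of its longest annotated transcript, on a log axis, in the 4 groups; vertical bars span the 2 libraries, lines join the values of 1 gene, and the bars of Gstt1 in DMSO, which reach 0, are drawn down to 0.02. Gsta4 and Gstt1 cross the other lines, at 39.4 and 9.09 in KD cells with largazole and 0.765 and 0.0305 in parental cells with DMSO.

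Few of these genes passed the test for the knockdown, which does not show that the others were unchanged. An unadjusted p under 0.05 was reached by 4 of 10 in DMSO and 6 of 10 with largazole. Of all 12517 tested genes, 3104 reached it in DMSO and 3988 with largazole, by edgeR's quasi-likelihood test. In DMSO, 2 of 10 were higher in KD cells, Gstm2 and Gsto1, and none was lower, where 7.01% of all tested genes were called higher and 4.02% lower, 11.0% in all. Gstm2 averaged 20.6 ± 0.400 CPM in KD cells with DMSO and 11.1 ± 0.581 CPM in parental cells with DMSO (SD, n = 2 each). Its log2 fold change was 0.89 ± 0.159 (adjusted p = 0.00624 by edgeR's quasi-likelihood test). Gsto1 averaged 495 ± 22.4 CPM in KD cells with DMSO and 354 ± 1.72 CPM in parental cells with DMSO (SD, n = 2 each). Its log2 fold change was 0.48 ± 0.106 (adjusted p = 0.017 by the same test of edgeR). The DMSO libraries of Gstm2 and Gsto1 did not overlap between KD and parental cells. The same held for Gstp1, Mgst1, Mgst3 and Gss, which were not called, Gss being lower in KD cells. The share of such genes over all tested genes was not counted, so non-overlap adds nothing to the 2 calls. The Gstm2 call was lost when either parental DMSO library was left out (adjusted p = 0.0764 and 0.053), and the Gsto1 call was lost without any 1 of the 4 DMSO libraries (adjusted p = 0.0633 to 0.153), all by edgeR's quasi-likelihood test.

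With largazole, 1 of the 10 genes was called higher in KD cells than in parental cells, Gstm2, none was lower, and 8.51% of all tested genes were called higher and 9.81% lower, 18.3% in all. It averaged 35.5 ± 5.42 CPM in KD cells with largazole and 21.8 ± 3.11 CPM in parental cells with largazole (SD, n = 2 each), a log2 fold change of 0.70 ± 0.144 (adjusted p = 0.00867 by edgeR's quasi-likelihood test). The call was lost without parental largazole replicate 2 (adjusted p = 0.0847). The count was 3 with DESeq2, which also called Gsto1 (adjusted p = 0.0447) and Gstp1 (adjusted p = 0.0219). Leaving out either KD largazole library changed the count of genes called: 8 were called without replicate 2 (Gsta4, Gstt1, Gstm1, Gstm2, Gstp1, Gsto1, Mgst1 and Mgst3, all higher), and 2 without replicate 1 (Gstm2 higher and Mgst3 lower, log2 -0.36, adjusted p = 0.0249 by the same test of edgeR).

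The closest patterns to that of Gstm2 over the 8 libraries, by the same measure of likeness, were those of S100a1 (0.0796), Spp1 (0.089) and Fcgrt (0.106). Several other transferases had log2 fold changes for the knockdown that did not pass with all 8 libraries. For Gstp1 they were 0.34 in DMSO (adjusted p = 0.173) and 0.42 with largazole (adjusted p = 0.0661), by edgeR's quasi-likelihood test. The Gstp1 value in DMSO passed in 4 of 20 alternatives, among them without KD largazole replicate 1 (adjusted p = 0.0011) and without replicate 2 (adjusted p = 0.00134). For Mgst1 they were 0.94 in DMSO (adjusted p = 0.135) and 0.80 with largazole (adjusted p = 0.0973). The Mgst1 value in DMSO passed in a fit of only the libraries compared (adjusted p = 0.0197), and that with largazole without KD largazole replicate 2 (adjusted p = 0.0459) or parental largazole replicate 2 (adjusted p = 0.0489). Gsto1 with largazole had 0.31 (adjusted p = 0.065). Gss had -0.16 in both conditions, and Gsr had -0.04 in DMSO and -0.15 with largazole, none of which passed.

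The responses to largazole were set against each other between genotypes by the interaction term of the same fit. None of the 10 genes had an unadjusted p under 0.05, which 1087 of all 12517 tested genes reached, by edgeR's quasi-likelihood test. None passed after adjustment, where 0.208% of all tested genes were called, 0.0320% higher and 0.176% lower. By DESeq2 and by limma-voom the count was also 0. The difference of the log2 responses, KD minus parental, was 0.29 ± 0.213 for Gstm1, the greatest among the genes with more than a few counts, and -0.21 ± 0.271 for Mgst3, the lowest. Without KD largazole replicate 1 the response was smaller in KD cells for Gsto1 (-0.35, adjusted p = 0.0353) and Mgst3 (-0.59, adjusted p = 0.0496) by edgeR's quasi-likelihood test.

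The rest of the glutathione network was described from a list of 64 genes in 6 roles that do not include the 10, of which 63 were in the tables and 52 were tested. With largazole 18 rose and 14 fell in KD cells, and 21 rose and 13 fell in parental cells. Of all tested genes, 25.0% were called higher and 23.2% lower in KD cells, and 26.9% and 22.7% in parental cells. The counts of each role below have these same shares as their background. The other transferases moved mostly as the 10 did, 8 higher and 2 lower of 13 tested in KD cells and 10 higher and 2 lower in parental cells, with median log2 fold changes of 2.22 in KD cells and 1.94 in parental cells. Named by smallest p, they were Gstm7 of the mu class (log2 3.13 ± 0.192 in KD cells and 4.17 ± 0.216 in parental cells), Gstk1, the mitochondrial and peroxisomal kappa-class enzyme (2.74 ± 0.233 in KD cells and 3.55 ± 0.279 in parental cells), Gstp2 (3.43 ± 0.33 in KD cells and 2.54 ± 0.35 in parental cells) and Gstt3 (3.31 ± 0.376 in KD cells and 2.47 ± 0.419 in parental cells). Their DMSO levels were low, with group means of at most 3.80 CPM. Gstm3, Gstm6 and Gstt3 stayed under the filter's minimum count of 10 in every DMSO library, with at most 0, 4 and 8 counts. Gstt2, called higher in parental cells, reached 10 only in KD DMSO replicate 2. Like Gstt1, these genes entered the test through the largazole libraries, so that they had to be higher there. The counts and medians of this role, and the counts of the network, include them. Gsta1, Gsta2, Gsta3, Gstp3, Gstt4 and Hpgds did not pass the filter.

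**Figure D4:**
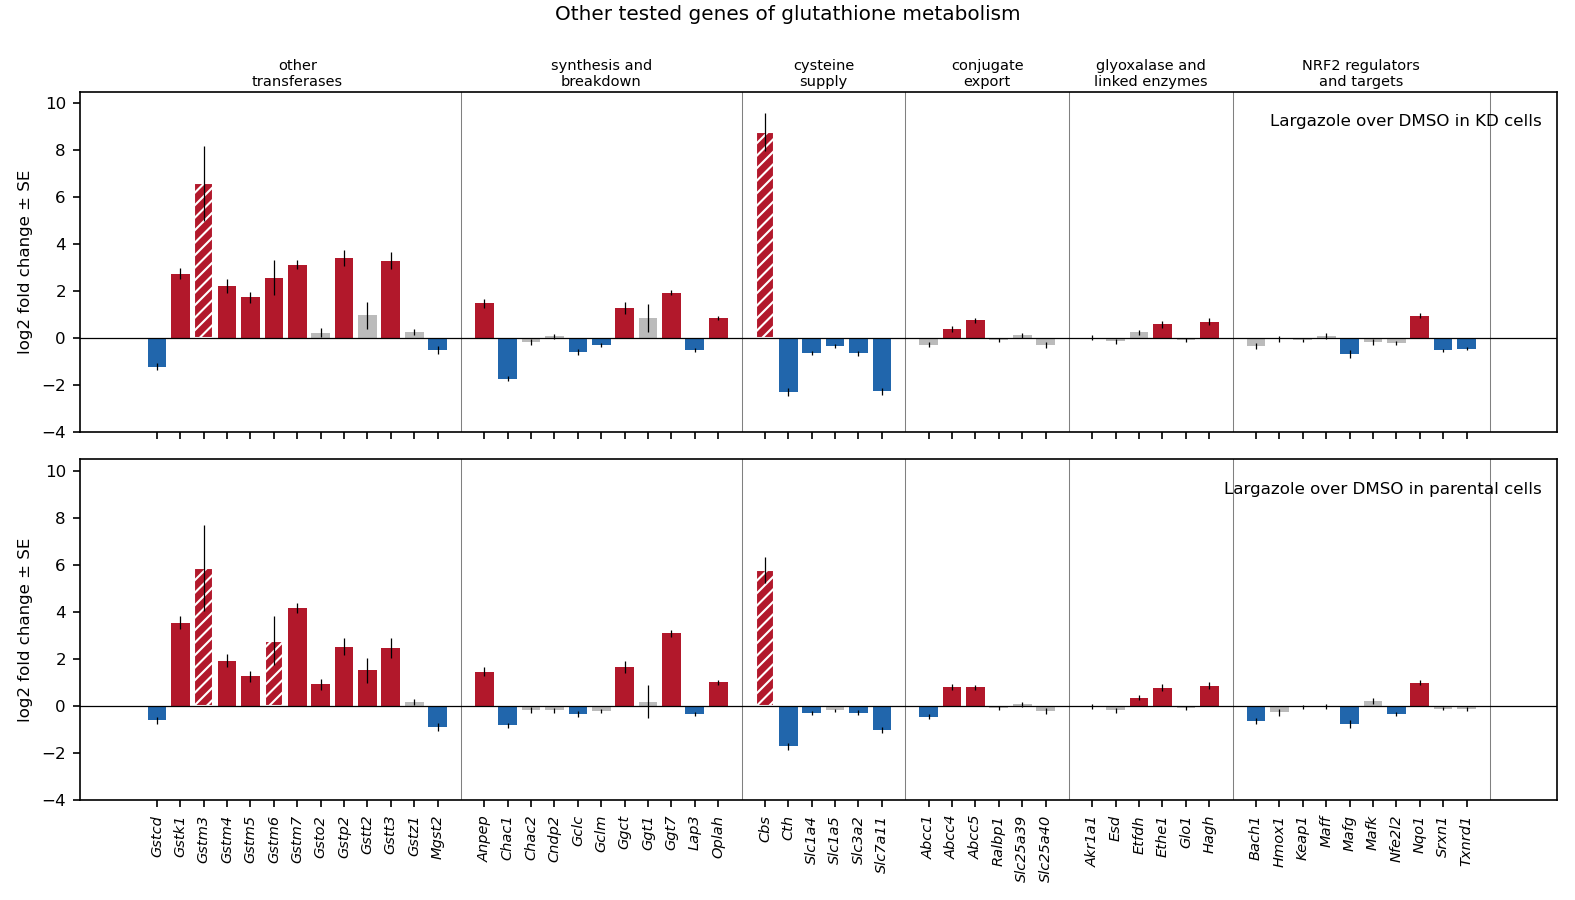
Log2 fold change for largazole over DMSO, with its SE, of the 52 tested genes of the network list in KD cells (top) and parental cells (bottom), by role. Red bars passed the test as higher and blue bars as lower, grey bars did not pass, and hatched bars have at most 3 counts summed over the DMSO group, so that their height depends on the fit; 18 genes rose and 14 fell in KD cells, 21 rose and 13 fell in parental cells.

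Among genes that supply cysteine, 5 of 6 tested were lower in KD cells and 4 of 6 in parental cells, where all tested genes had 23.2% lower in KD cells and 22.7% in parental cells. The parental count was 2 of 6, Slc7a11 and Cth, with upper-quartile scaling or library totals only. In KD cells the call of Slc1a5, another neutral amino acid transporter, was lost without KD DMSO replicate 1 (adjusted p = 0.0731) and with only the libraries compared (adjusted p = 0.062), by edgeR's quasi-likelihood test. Slc7a11, the cystine importer, had 7.64 and 8.02 CPM in KD cells with largazole, 37.1 and 37.7 CPM in KD cells with DMSO, 13.8 and 16.7 CPM in parental cells with largazole, and 28.5 and 32.4 CPM in parental cells with DMSO. Cth, which releases cysteine from cystathionine, fell by 2.28 ± 0.181 on the log2 scale in KD cells and by 1.70 ± 0.153 in parental cells. Slc1a4, a neutral amino acid transporter, fell by 0.62 ± 0.0891 in KD cells, and its log2 value of -0.30 in parental cells (adjusted p = 0.0176 by edgeR's quasi-likelihood test) did not pass without any 1 of the 4 parental libraries (adjusted p = 0.0598 to 0.115). Slc3a2, the partner chain of Slc7a11, outside the naming rule and named after its values were seen, likewise lost its parental call (log2 -0.28, adjusted p = 0.0447) without any 1 of those libraries (adjusted p = 0.0698 to 0.201), without KD DMSO replicate 1 (adjusted p = 0.0549) and with the stricter filter (adjusted p = 0.063). Cbs, which makes cystathionine, rose against them, with 60 and 45 counts in KD cells with largazole and none in KD cells with DMSO, at least 36.4-fold higher against a floor of 3 counts over the group. In parental cells Cbs had 131 counts in all with largazole and 2 with DMSO, a ratio of 62.2 (exact binomial 95% interval 16.9 to 519). Cbs too entered the test only through the largazole libraries.

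Among the genes of glutathione synthesis and breakdown, 4 rose and 4 fell of 11 tested in KD cells, and 4 rose and 3 fell in parental cells. Ggt7, of the gamma-glutamyl transferase family, rose by 1.95 ± 0.122 on the log2 scale in KD cells and by 3.10 ± 0.14 in parental cells. Oplah, the 5-oxoprolinase that returns glutamate, rose by 0.87 ± 0.0953 in KD cells and 1.02 ± 0.0982 in parental cells, and Anpep, a membrane aminopeptidase, by 1.49 ± 0.18 in KD cells and 1.47 ± 0.204 in parental cells. Chac1, which cleaves cytosolic glutathione, fell by 1.71 ± 0.0945 in KD cells and by 0.82 ± 0.0895 in parental cells. Gclc, the catalytic subunit of the enzyme that starts glutathione synthesis, and its partner subunit Gclm were named after their values were seen. Gclm fell by 0.29 ± 0.0794 in KD cells (adjusted p = 0.0132) and had -0.20 ± 0.0797 in parental cells (adjusted p = 0.0637) by edgeR's quasi-likelihood test. Its call in KD cells was lost without either KD DMSO library, with upper-quartile scaling and with only the libraries compared (adjusted p = 0.0518 to 0.0869). Gclc fell by 0.58 ± 0.12 in KD cells, and its log2 value in parental cells was -0.33 ± 0.115 (adjusted p = 0.035 by edgeR's quasi-likelihood test). That call in parental cells was lost without any 1 of the 4 parental libraries (adjusted p = 0.0658 to 0.189) and with library totals only (adjusted p = 0.102).

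Of 6 export genes 2 rose in KD cells, Abcc5 (log2 0.77 ± 0.109) and Abcc4 (0.41 ± 0.127), both pumps of organic anions, and none fell. The Abcc4 call in KD cells was lost without KD DMSO replicate 1 (adjusted p = 0.16) or KD largazole replicate 2 (adjusted p = 0.0761) by edgeR's quasi-likelihood test. In parental cells the same pair rose and 1 export gene fell. Of 6 glyoxalase and glutathione-linked genes 2 rose in KD cells and 3 in parental cells, led by Hagh, the second glyoxalase (log2 0.72 ± 0.144 in KD cells and 0.88 ± 0.146 in parental cells). Ethe1, a mitochondrial persulfide dioxygenase, had 0.60 ± 0.153 in KD cells and 0.79 ± 0.153 in parental cells, and its call in KD cells was lost without KD DMSO replicate 2 (adjusted p = 0.082).

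Regulators and marker targets of NRF2, the factor that drives many transferase genes, had 1 of 10 higher and 3 lower in each genotype, where 48.2% of all tested genes were called in KD cells and 49.6% in parental cells. Nqo1, a quinone reductase, rose by 0.96 ± 0.103 on the log2 scale in KD cells and by 1.00 ± 0.103 in parental cells. Srxn1, the sulfiredoxin, fell by 0.50 ± 0.0711 in KD cells and had -0.11 ± 0.0704 in parental cells (adjusted p = 0.243 by edgeR's quasi-likelihood test). Txnrd1, the cytosolic thioredoxin reductase, fell by 0.44 ± 0.0753 in KD cells and had -0.11 ± 0.0747 in parental cells (adjusted p = 0.266). Mafg, a small partner of NRF2, fell by 0.67 ± 0.165 in KD cells and by 0.74 ± 0.163 in parental cells. Bach1, another regulator of the list, was also named after its values were seen. It averaged 28.1 ± 0.68 CPM in parental cells with largazole and 43.5 ± 3.32 CPM with DMSO (SD, n = 2 each). In KD cells it averaged 25.3 ± 4.42 CPM with largazole and 31.9 ± 1.79 CPM with DMSO. Nfe2l2, which encodes NRF2 and was named after its values were seen, fell by 0.33 ± 0.0765 in parental cells (adjusted p = 0.00531) and had -0.19 ± 0.0767 in KD cells (adjusted p = 0.0669). Its parental call was lost without parental DMSO replicate 1 (adjusted p = 0.0641).

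For the knockdown, 5 of the 52 network genes were higher and 3 lower in DMSO, and 7 were higher and 10 lower with largazole. Of all tested genes, 7.01% were called higher and 4.02% lower in DMSO, and 8.51% higher and 9.81% lower with largazole. Ggt7 was 1.41 ± 0.155 higher on the log2 scale in KD cells with DMSO (adjusted p = 0.000374 by edgeR's quasi-likelihood test), and its 0.26 with largazole did not pass (adjusted p = 0.134). Cth was lower in KD cells, with a log2 fold change of -1.46 ± 0.189 with largazole (adjusted p = 0.000806) and -0.88 ± 0.146 with DMSO (adjusted p = 0.00417), and the DMSO call was lost without KD DMSO replicate 2 (adjusted p = 0.0518) or parental DMSO replicate 1 (adjusted p = 0.0545). With largazole 5 of the 6 cysteine supply genes were lower in KD cells. Of these, Slc3a2, Slc1a4 and Slc1a5 were not called when either parental largazole library was left out (adjusted p = 0.0585 to 0.228) or with only the libraries compared (adjusted p = 0.0807 to 0.167), which left 2 of 6, Slc7a11 and Cth, by edgeR's quasi-likelihood test. Slc3a2 and Slc1a5 were also not called without any 1 of the 4 DMSO libraries (adjusted p = 0.0517 to 0.0902), nor Slc3a2 without KD largazole replicate 2 (adjusted p = 0.0523).

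Markers of other cell types were followed in the same libraries. The 6 fibroblast genes summed to 3218 to 3686 CPM in KD cells with largazole, 3635 to 3706 CPM in KD cells with DMSO, 2287 to 2310 CPM in parental cells with largazole and 2390 to 2397 CPM in parental cells with DMSO, so they were higher in KD cells as Gstm2 was. The 5 leukocyte genes summed to 42.5 to 49.0 CPM in KD cells with largazole, 4.48 to 4.64 CPM in KD cells with DMSO, 62.6 to 63.5 CPM in parental cells with largazole and 3.99 to 4.66 CPM in parental cells with DMSO, nearly all of it Cd68, which averaged 44.3 ± 4.48 CPM in KD cells with largazole and 4.38 ± 0.0522 CPM in KD cells with DMSO. The 3 hepatocyte genes summed to at most 0.81 CPM in any library. The part of these shifts in the results was not tested, and in bulk RNA fewer cells of a type and less RNA per cell cannot be told apart.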

How the data were processed

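Polyadenylated RNA of 8 libraries was sequenced from directional libraries, per the labels' protocols, and the genome build was mm10, per the submitters' processing notes. Aligner, counting tool, strand setting and annotation were not given in the sources used here. Per gene symbol, the authors deposited expected counts, as the values show: whole for most genes, fractional for some, with no normalization. Rounding to whole numbers preceded the tests. Coordinates and transcripts came from GENCODE M21 on GRCm38, the assembly of mm10, and promoters from RefSeq on GRCm38.p6.

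Tests used edgeR 4.0.16 (glmQLFit and glmQLFTest, two-sided, TMM scaling, filterByExpr with a minimum count of 10 and a minimum total of 15) in R 4.3.3, on all 8 libraries with 1 mean per group, which share 1 estimate of the spread. P-values were adjusted by Benjamini-Hochberg over 12517 genes (threshold 0.05). A common biological coefficient of variation of 0.0946 was estimated. SEs were derived from each log2 fold change and its F statistic. The script was tested on simulated data. Alternatives were RLE, upper-quartile or no scaling, other filters, DESeq2 1.42.0, limma-voom (limma 3.58.1), the replicate number as a block, Rn45s removed, only the libraries compared, and each library left out. The older quasi-likelihood method and the sum of Gstp1 and Gstp2 were added after seeing the data. The 10 genes, the network and marker lists and the tests were chosen with earlier results of these data known. The genes named from the network list are up to 4 called genes of each role by smallest p. Gclc, Gclm, Slc3a2, Slc1a5, Bach1 and Nfe2l2 were added. Intervals of ratios cover counting error only.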

Additional observations from a re-analysis of the deposited data

Results flagged for a closer look

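None of the 10 genes passed for the difference between genotypes, by the interaction term of edgeR's quasi-likelihood fit. Of the 52 tested genes of the network list 2 did, beside 26 of all 12517 tested genes (0.208%). Slc7a11, the cystine importer, had a log2 response to largazole 1.26 ± 0.196 lower in KD cells than in parental cells, a difference of -1.26 (adjusted p = 0.0402). Chac1, which cleaves glutathione, had a difference of -0.89 ± 0.129 (adjusted p = 0.029). Both genes were lower with the drug in both genotypes. Over 19 alternatives the Slc7a11 difference ran from -1.39 to -1.08 and passed in 10, with adjusted p from 0.00101 to 0.37. The Chac1 difference ran from -0.93 to -0.84 and passed in 12, with adjusted p from 0.00143 to 0.331. Neither passed without any 1 of the KD DMSO, parental largazole or parental DMSO libraries.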

How the results depend on the processing

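The 16 largazole calls among the 10 genes were kept under all 20 alternatives, and the counts of the knockdown comparisons were less stable. The 16 calls include Gstt1 in each genotype, which had to differ. Of 989 values of the 10 genes under alternatives, 921 kept direction and side of the threshold, 21 newly passed in the same direction, 7 no longer passed and 40 changed sign, of which 1 passed the test (Mgst3 for the knockdown under largazole, without KD largazole replicate 1). With only the libraries compared, 4 of the 10 genes, 18 network genes and 3266 of all genes were called for the knockdown in DMSO, and 7 network genes and 965 of all genes for the knockdown under largazole. With DESeq2, 3 of the 10 genes were called for the knockdown under largazole, and 84 of all genes for the difference between responses. The network count for that difference was 1 with library totals only, 1 with limma-voom and 0 without a filter. Leaving out 1 library, the knockdown in DMSO called 0 to 3 of the 10 genes, 1 to 16 network genes and 398 to 2969 of all genes. Under largazole it called 1 to 8, 6 to 24 and 837 to 4175, and the difference between responses called 0 to 2, 0 to 7 and 2 to 457.

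Replicate numbers were not taken as pairing, since the labels do not state it and replicate differences did not correlate between all groups. The correlations were 0.343 for KD largazole with KD DMSO, 0.364 for KD largazole with parental largazole and 0.273 for KD DMSO with parental largazole. With parental DMSO they were -0.008 for KD largazole, 0.002 for KD DMSO and 0.146 for parental largazole. Replicate differences were thus partly shared among the groups other than parental DMSO, and the cause was not tested. With the replicate block, 3 of the 10 genes passed for the knockdown in DMSO and 3 under largazole (Gstm2, Gsto1 and Gstp1 each time), 104 of all genes passed for the difference between responses, and the 8 largazole calls in each genotype stood. Upper-quartile scaling moved the split of largazole calls over all genes to 3638 higher and 2316 lower in KD cells, against 3124 and 2905, and to 3869 and 2233 in parental cells, against 3366 and 2839. Library totals only gave 3442 and 2454 in KD cells, and 3752 and 2295 in parental cells.

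The values that changed sign belonged to genes that had not passed. With 1 library left out, the log2 fold change of Gsr ran from -0.055 to 0.011 for largazole in KD cells, from -0.005 to 0.149 for largazole in parental cells and from -0.129 to 0.026 for the knockdown in DMSO. The knockdown value in DMSO ran from -0.323 to 0.909 for Gsta4, -2.348 to 2.312 for Gstt1 and -0.289 to 0.057 for Gstm1, and under largazole from -0.034 to 0.386 for Gstm1 and -0.363 to 0.324 for Mgst3. The difference between responses ran from -0.107 to 0.116 for Gss, -0.52 to 0.724 for Gsta4, -1.679 to 2.982 for Gstt1, -0.353 to 0.007 for Gsto1, -0.204 to 0.334 for Gstp1, -0.531 to 0.444 for Mgst1 and -0.586 to 0.11 for Mgst3.

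Under other alternatives the Gsr value in KD cells became 0.035 with library totals only, 0.007 with the stricter filter and 0.063 with upper-quartile scaling. The Mgst3 knockdown value under largazole became -0.015 with library totals only, -0.028 with limma-voom and -0.003 with the replicate block. The difference for Gss became 0 with Rn45s removed, -0.014 with library totals only, -0.005 with limma-voom and -0.001 with upper-quartile scaling. For Gsta4 it became 0.005 with DESeq2, 0.01 with RLE scaling, 0.094 with limma-voom and 0.017 without a filter. Apart from fewer libraries or genes in a fit, the cause was not tested. Depth limits Gstt1 in DMSO, with 1 count a group.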
